A study of Mus musculus with 7 samples.

Results

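The core pluripotency genes are 10 genes that mouse embryonic stem cells (ESCs) use to keep their undifferentiated state: Pou5f1, Sox2, Nanog, Klf4, Klf2, Esrrb, Zfp42, Sall4, Utf1 and Tdgf1. They were taken by gene symbol from ChIP-seq profiles around transcription start sites (TSSs), which gave 12 of the 36733 TSSs in the Flag ChIP files, 1 for each gene and 3 for Esrrb. All 12 carry a RefSeq identifier and are therefore also among the 22704 TSSs of the p400 files. The profiles hold no RNA measurement, so expression of these genes, and with it the statement that their promoters are active in ESCs, could not be checked here.

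The 7 libraries each stand for 1 condition, with no replicates. All cells were E14 mouse ESCs, kept without feeder cells in medium with LIF. Tip60-H3F ESCs, in which 1 endogenous copy of Tip60 carries a C-terminal tag of histidine and FLAG epitopes, were profiled with a FLAG antibody upon GFP KD (the control knockdown) and upon Hdac6 KD. Hdac6-H3F ESCs, tagged in the same way, were profiled upon GFP KD and in the library titled Tip60 KD, whose genotype label reads Hdac6 KD instead. It is treated here by its title, and since a ChIP profile does not show how much protein was left, neither label could be checked, nor could the other knockdowns. E14 cells without a tag gave the background of the FLAG antibody (the untagged library). Its title names no knockdown and no time after infection is given for it. In ratios over this library the tag and the GFP KD infection therefore cannot be told apart. Endogenous p400 was profiled upon GFP KD and upon Hdac6 KD. Knockdown samples were taken 72 hr after infection with lentivirus carrying a short hairpin RNA. Each tagged line is a targeted derivative of E14, so differences between lines and differences between targets cannot be told apart.

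Values are read coverage in ppm (the number of reads over a position, scaled to the library total), and promoter signal means the average from −500 to 500 bp around the TSS. The libraries were normalized to between 9226700 and 31375500 reads, and the median TSS had 8 to 21 reads within its promoter window. Intervals given as 95% are exact conditional binomial intervals on reads, which cover counting error in these libraries and nothing that varies between cultures. Duplicate reads were kept by the authors, so the true error is wider. Single TSSs were compared between a pair of libraries by an exact conditional binomial test on reads, with Benjamini-Hochberg adjustment over all TSSs of the pair. Such a test compares 2 libraries and not 2 conditions.

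Pou5f1, Sox2 and Nanog encode the transcription factors at the centre of the ESC network, which bind together at many enhancers, including those of their own genes. Klf4, Klf2 and Esrrb are transcription factors of the naive state that act beside them, Sall4 is a zinc finger factor that regulates Pou5f1, Zfp42 (Rex1) and Utf1 are ESC markers encoding nuclear proteins, and Tdgf1 (Cripto) encodes a cell surface co-receptor for Nodal. Tip60-p400 is a chromatin remodeling complex in which Tip60 acetylates histones and p400 exchanges histone variants. Hdac6 is a class II deacetylase that is cytoplasmic in most cells and whose presence at chromatin was the subject of the study.

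The TSSs lay on mm9 at chr17:35642984 for Pou5f1, chr3:34548927 for Sox2, chr6:122657583 for Nanog, chr8:74842932 for Klf2 and chr7:147129755 for Utf1 on the plus strand. On the minus strand they lay at chr4:55545338 for Klf4, chr8:44392363 for Zfp42, chr2:168592701 for Sall4 and chr9:110848662 for Tdgf1. The Esrrb starts lay at chr12:87702067, chr12:87762594 and chr12:87811067 on the plus strand and are called start 1, 2 and 3. Of the 12, 11 fell on an annotated transcript start of the gene in GENCODE M1 and Pou5f1 lay 2 bp from one. For Esrrb, start 1 stands for the gene where a count is over 10 genes. Of possible 50-base reads starting in these windows, 11.0% had an exact copy elsewhere in mm9 at Tdgf1, 4.3% at Zfp42 and 3.1% at Utf1. At each of the other 9 TSSs, 0 of 1001 start positions had one. Copies with 1 mismatch, which the mapping allowed, were not counted. The full effect of random placement of repeated reads was therefore not measured.

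Promoter sequence is shown for the 3 genes with the lowest ratio of p400 signal upon Hdac6 KD to that upon GFP KD, and for Tdgf1, whose ratio was among the highest. Each runs 5′ to 3′ from 250 bp upstream to the base before the TSS on the gene's strand, with matches to the motifs searched in capitals. The windows are chr17:35642734-35642983 (Pou5f1), chr7:147129505-147129754 (Utf1), chr8:44392364-44392613 (Zfp42, minus strand) and chr9:110848663-110848912 (Tdgf1, minus strand) of mm9.
Pou5f1: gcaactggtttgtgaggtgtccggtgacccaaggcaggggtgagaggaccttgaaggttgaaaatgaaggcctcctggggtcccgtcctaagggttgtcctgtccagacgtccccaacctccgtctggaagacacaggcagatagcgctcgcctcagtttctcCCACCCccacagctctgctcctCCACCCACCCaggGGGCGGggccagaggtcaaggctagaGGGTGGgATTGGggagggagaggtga
Utf1: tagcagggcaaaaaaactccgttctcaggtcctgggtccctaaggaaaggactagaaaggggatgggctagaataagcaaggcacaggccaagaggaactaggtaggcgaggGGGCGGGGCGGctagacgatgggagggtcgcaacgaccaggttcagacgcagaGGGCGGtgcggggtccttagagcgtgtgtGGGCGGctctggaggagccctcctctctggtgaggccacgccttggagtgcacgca
Zfp42: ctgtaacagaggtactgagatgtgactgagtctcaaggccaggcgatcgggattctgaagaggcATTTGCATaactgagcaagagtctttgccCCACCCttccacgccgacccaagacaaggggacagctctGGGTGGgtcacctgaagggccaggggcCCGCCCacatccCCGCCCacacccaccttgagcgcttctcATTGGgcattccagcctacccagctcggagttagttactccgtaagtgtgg
Tdgf1: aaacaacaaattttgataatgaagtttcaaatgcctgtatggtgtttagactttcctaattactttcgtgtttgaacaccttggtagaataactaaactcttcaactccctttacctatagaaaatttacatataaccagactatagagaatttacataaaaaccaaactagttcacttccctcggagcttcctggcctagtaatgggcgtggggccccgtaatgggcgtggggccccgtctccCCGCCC
The capitals mark GC boxes (GGGCGG) at all 4 genes, CACCC boxes (CCACCC) and a CCAAT box (CCAAT) at Pou5f1 and Zfp42, and an octamer (ATTTGCAT) at Zfp42, the sequence that Pou5f1 protein is known to bind. Both strands were searched and overlapping matches were kept.

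GC boxes were found upstream of 7 of the 10 genes (all but Nanog, Esrrb and Sall4), against 35.2% of all TSSs and 44.0% of genes, taken at 1 TSS each, in windows of the same length. In the RefSeq promoter table of GRCm38.p6, which holds 9 of the genes (all but Sall4) and reaches 50 bases past the TSS, the same 7 genes had one, against 35.7% of its promoters. CACCC boxes were upstream of 4 genes (Pou5f1, Nanog, Esrrb and Zfp42) against 28.2% of TSSs (29.9% of genes), and CCAAT boxes of 4 (Pou5f1, Sox2, Zfp42 and Sall4) against 33.2% (34.7%). The octamer occurred at Zfp42 alone among the 10 genes, against 1.44% of TSSs, the Sox motif (CATTGT) at Nanog alone, against 9.43% (at Nanog, Esrrb and Pou5f1 in the RefSeq table, against 12.6%), and an E-box (CACGTG) at Klf4 alone, against 6.12%. TATA boxes (TATAAA, 11.9% of TSSs) and the Esrrb site (TCAAGGTCA, 0.395%) were in none of these 10 windows. The promoters spanned a wide range of base composition. GC content from −500 to 500 bp was 69.4% at Klf4, 64.8% at Klf2 and 63.9% at Sox2 but 48.6% at Nanog and at Zfp42 and 45.7% at Tdgf1, with a median of 57.9% over the 10 genes and 52.9% over all TSSs.

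In control cells p400 signal was above that of the typical TSS at most of these genes. Tip60 and Hdac6 signal were each high at some of them. Here high means a percentile rank among all TSSs of 78.28 or more, the Hdac6 rank of Nanog. Esrrb was taken at start 1, which was high for neither. The subsets overlapped at Pou5f1, Utf1 and Nanog. Tdgf1 was high for Tip60 but not Hdac6, and Klf2 and Klf4 for Hdac6 but not Tip60. High Tip60 signal did not mean signal above the untagged library. The ratio of Tip60 to untagged signal was 0.993 at Pou5f1 and 0.753 at Nanog. Klf2 had the highest p400 promoter signal, 0.488 ppm, followed by Sall4 (0.466 ppm), Pou5f1 (0.407 ppm), Utf1 (0.387 ppm), Sox2 (0.372 ppm), Nanog (0.320 ppm), Zfp42 (0.264 ppm), Esrrb start 1 (0.240 ppm), Tdgf1 (0.163 ppm) and Klf4 (0.132 ppm). The 95% counting intervals of neighbours in this order overlapped throughout. The median of all TSSs was 0.239 ppm, and 8 of the 10 genes were above it, Esrrb start 1 only barely. No background library for the p400 antibody is among the 7 libraries. How much of this signal is background was therefore not tested. The medians were 0.346 ppm for the 10 genes, 0.501 ppm for the 77 cytosolic ribosomal protein genes, a set with strong signal in this library, and 0.248 ppm for 15 early endoderm genes.

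Tip60 signal upon GFP KD was highest at Pou5f1 (0.339 ppm), Tdgf1 (0.321 ppm), Utf1 (0.313 ppm) and Esrrb start 3 (0.310 ppm) at percentile ranks of 93.7, 92.1, 91.4 and 91.1 among all TSSs. It was lowest at Klf4 (0.0891 ppm), Esrrb start 1 (0.0937 ppm) and Zfp42 (0.125 ppm), below the median of 0.164 ppm over all TSSs. The remaining values were 0.267 ppm at Nanog, 0.213 ppm at Esrrb start 2, 0.202 ppm at Sall4, 0.197 ppm at Klf2 and 0.188 ppm at Sox2. Klf2 and Sall4, with the highest p400 signal, were thus near the middle of the Tip60 order, while Tdgf1 had high Tip60 and low p400 signal.

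Hdac6 signal was highest at Klf2, with 0.396 ppm and a percentile rank of 99.4 among all TSSs. Esrrb start 3 (0.286 ppm), Pou5f1 (0.264 ppm), Klf4 (0.249 ppm), Utf1 (0.230 ppm), Esrrb start 2 (0.212 ppm) and Nanog (0.208 ppm) followed, all above the median of 0.129 ppm. Zfp42 (0.139 ppm), Sox2 (0.120 ppm), Esrrb start 1 (0.110 ppm), Sall4 (0.0982 ppm) and Tdgf1 (0.0880 ppm) were near or below it. Single reads cover 148 to 149 bp in the Hdac6 files and 299 bp in the others, so at equal read density Hdac6 values in ppm are lower, and they were not set against the other libraries without scaling.

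**Figure D1:**
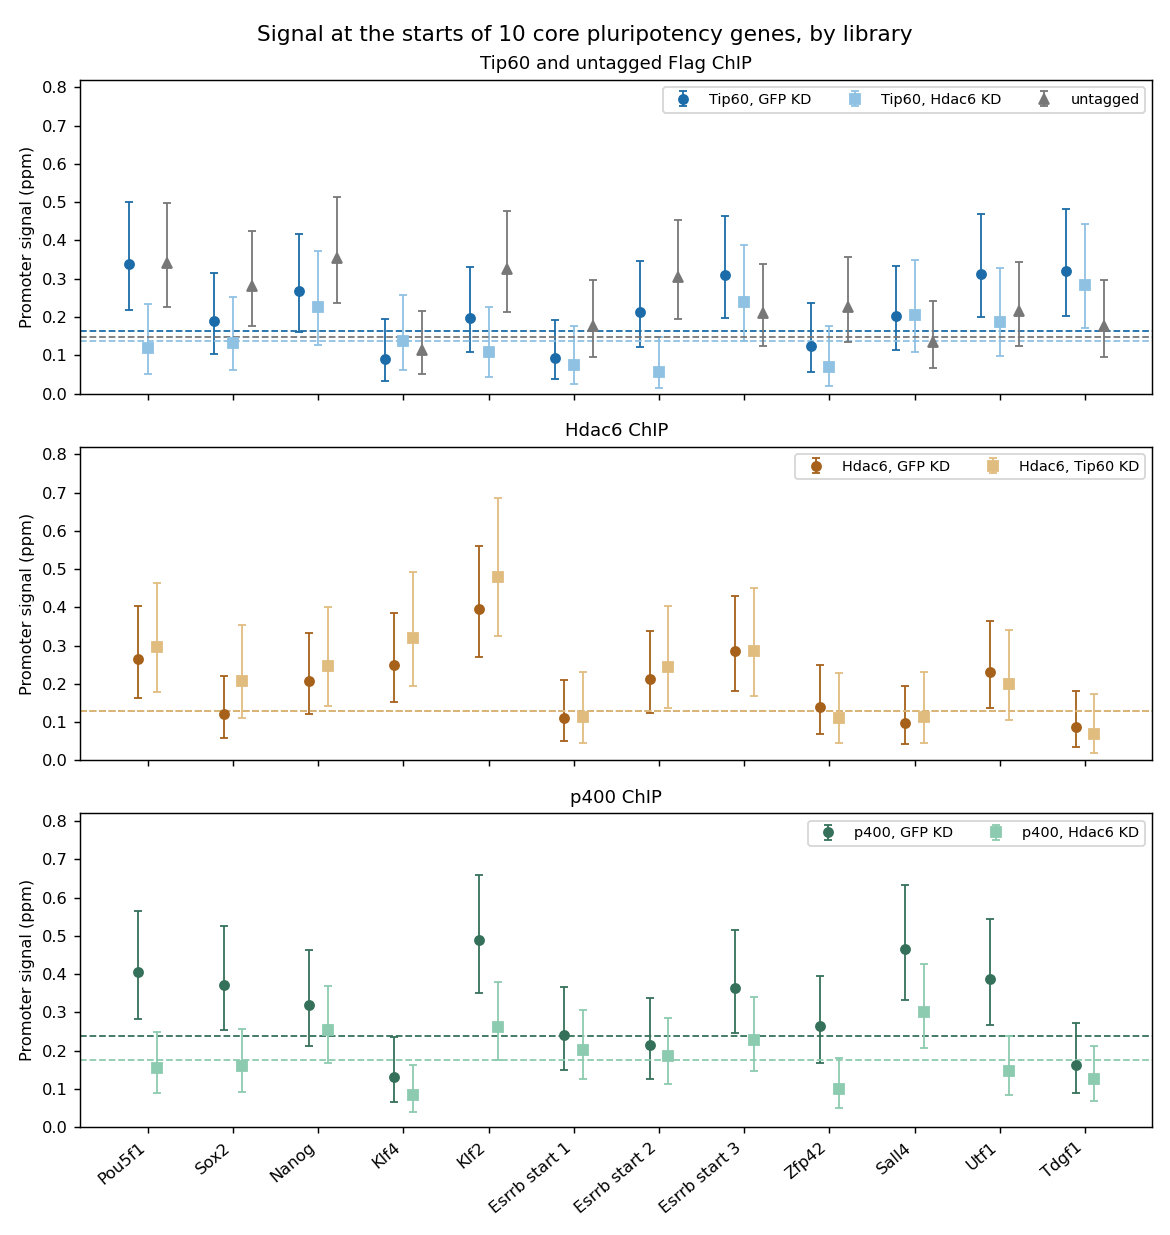
Promoter signal in ppm (vertical axis, −500 to 500 bp) at the 12 TSSs of the 10 genes (horizontal axis) in each of the 7 libraries, with bars for the 95% counting interval of the reads and dashed lines for the median of all TSSs in the same library. The untagged triangles reach 0.341 ppm at Pou5f1 and 0.355 ppm at Nanog, as high as or above the Tip60 circles there, and every p400 square upon Hdac6 KD is below its GFP KD circle.

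The FLAG background was itself high at several of these genes. In untagged cells, which hold no FLAG epitope, the promoter signal was 0.355 ppm at Nanog, 0.341 ppm at Pou5f1, 0.325 ppm at Klf2, 0.304 ppm at Esrrb start 2 and 0.281 ppm at Sox2, at percentile ranks of 99.0, 98.7, 98.2, 97.1 and 95.2 among all TSSs. It was 0.226 ppm at Zfp42, 0.214 ppm at Utf1, 0.211 ppm at Esrrb start 3, 0.176 ppm at Tdgf1 and at Esrrb start 1, 0.136 ppm at Sall4 and 0.114 ppm at Klf4. Nanog, Pou5f1, Klf2 and Sox2, 4 of the 10 genes, were in the top twentieth of TSSs. No gene was in the top twentieth for Tip60 upon GFP KD, and 1, Klf2, was for Hdac6. The median percentile rank of the 10 genes was 82.8 in the untagged library, 76.4 for p400, 65.9 for Hdac6 and 65.4 for Tip60 upon GFP KD. Ranks for p400 are among the 22704 TSSs of its files and the others among 36733, so they are not strictly comparable.

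Tip60 signal in control cells was not above the untagged signal at most of these genes. It was below it at 7 of 10, against 40.8% of all TSSs, with a median ratio of 0.769 against 1.13 over all 36018 TSSs with untagged signal. By a fold of 1.5, Tip60 was higher at 1 gene (Tdgf1), against 29.9% of all TSSs, and lower at 3 (Esrrb start 1, Zfp42 and Klf2), against 16.4%. The ratio at Pou5f1 was 0.993 (95% interval 0.559 to 1.80, 25 and 27 reads), so the high Tip60 signal there was at the untagged level. At Nanog the ratio was 0.753 (0.388 to 1.37), at Sox2 0.670 (0.327 to 1.41) and at Klf2 0.604 (0.282 to 1.16).

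The highest ratios were 1.82 at Tdgf1 (95% interval 0.879 to 3.75), 1.49 at Sall4 (0.635 to 3.56), 1.47 at Esrrb start 3 (0.750 to 2.93) and 1.46 at Utf1 (0.750 to 2.93), all of them with intervals that include 1. In the wider window of −1000 to 1000 bp the ratio at Tdgf1 was 0.855. The exact binomial test with Benjamini-Hochberg adjustment called 0 of the 12 TSSs in either direction, while 1.37% of all TSSs were called higher and 0.119% lower. At unadjusted values the smallest p of the exact test was 0.0997, at Tdgf1. At 9 to 28 untagged reads per TSS the counting intervals were wide. On simulated reads of this pair, a 4-fold fall of Tip60 below untagged was called in 6.5% of the changed TSSs. A rise was not simulated, so the power to call Tip60 above untagged was not measured. A lack of calls therefore does not show a lack of Tip60. For comparison, the ratio had a median of 2.24 over the ribosomal protein genes, of which 24 of 77 were called higher, and 1.15 over the endoderm genes.

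Hdac6 upon GFP KD, set against the untagged library as reads scaled to library size, gave a median ratio of 1.36 over the 10 genes and 1.70 over all TSSs. It was above 1 at 9 of 10, against 75.5% of all TSSs, and above a fold of 1.5 at 4 (Klf4, Klf2, Utf1 and Pou5f1), against 57.1% of all TSSs. Klf4 stood highest at 4.41 (95% interval 1.93 to 11.1), from 20 Hdac6 and 9 untagged reads, followed by Esrrb start 3 at 2.73 (1.38 to 5.39), Klf2 at 2.45 (1.42 to 4.30) and Utf1 at 2.16 (1.03 to 4.37). The exact binomial test with Benjamini-Hochberg adjustment called Klf4 (adjusted p = 0.00153), Klf2 and Esrrb start 3 higher, so 2 of the 10 genes, against 23.3% of all TSSs. It called 0 of the 10 lower, against 0.419%. Sox2 (0.860), Tdgf1 (1.01) and Nanog (1.18) had the lowest ratios. With both libraries set to the same total signal, the median ratio of the 10 genes became 0.985. Klf4 alone then stayed called by the exact test (adjusted p = 0.0451), so 1 of the 10 genes, against 7.77% of all TSSs.

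Upon Hdac6 KD p400 signal, as scaled by the authors, was lower at all 10 genes, as it was at 74.3% of all TSSs, and most of all at Pou5f1, Utf1, Zfp42 and Sox2. Pou5f1 had 0.407 ppm of p400 in control cells and 0.155 ppm after the knockdown, a ratio of 0.381 (95% interval 0.206 to 0.718, 35 and 17 reads). Utf1 went from 0.387 to 0.147 ppm, a ratio of 0.381 (0.201 to 0.731). Zfp42 had 0.264 and 0.101 ppm, with a ratio of 0.381 (0.170 to 0.824) that rests on 23 and 11 reads. Sox2 had 0.372 and 0.160 ppm, a ratio of 0.430 (0.223 to 0.795). In percentile rank among all TSSs, Pou5f1 went from 87.4 to 38.3, Utf1 from 84.5 to 34.2, Sox2 from 81.9 to 41.0 and Zfp42 from 56.6 to 14.0, so these genes were lower relative to other TSSs as well.

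The other genes had smaller differences. Klf2 went from 0.488 to 0.263 ppm (ratio 0.539, 95% interval 0.321 to 0.888), Klf4 from 0.132 to 0.0850 ppm (0.642, 0.242 to 1.75), Sall4 from 0.466 to 0.301 ppm (0.647, 0.392 to 1.05) and Nanog from 0.320 to 0.253 ppm (0.791, 0.441 to 1.37). Tdgf1 had 0.163 and 0.127 ppm, a ratio of 0.780 (0.356 to 1.83). The Esrrb starts gave 0.840, 0.868 and 0.629 in order, each with an interval that includes 1. Sall4, at 0.301 ppm, had the highest p400 signal of the 10 upon Hdac6 KD and held a percentile rank of 97.0, against 93.3 upon GFP KD.

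The median p400 ratio of the 10 genes was 0.590, against 0.711 over all 22443 TSSs with signal, 0.375 over the ribosomal protein genes and 0.565 over the endoderm genes. Summed over the 10 genes control cells had 279 reads and knockdown cells 193, a ratio of 0.558 (95% interval 0.462 to 0.673), against 0.688 over all TSSs. By a fold of 1.5, p400 was lower at 7 of 10 genes, against 44.7% of all TSSs, and higher at 0, against 8.53%. The exact binomial test with Benjamini-Hochberg adjustment called 3 of the 10 lower (Pou5f1, adjusted p = 0.0154, Utf1, 0.0237, and Sox2, 0.0342), against 13.4% of all TSSs, and 0 higher, against 0.312%. Zfp42 (0.0586) and Klf2 (0.0689) missed the threshold. The 3 calls depended on the window and the scaling: with both libraries set to the same total signal, or with the window narrowed to −250 to 250 bp, the test called 0 of 10, against 3.48% and 4.18% of all TSSs. The ratios of Pou5f1, Sox2 and Utf1 were then 0.461, 0.521 and 0.461 with equal totals and, from fewer reads, 0.364, 0.302 and 0.457 in the narrower window. With equal totals Esrrb start 1 was not lower (ratio 1.02), and Sall4 (0.783) and Klf4 (0.776) were no longer lower by 1.5-fold.

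In the wider window of −1000 to 1000 bp, which holds more reads per gene, the same test called 5 genes lower, against 19.3% of all TSSs. By this exact test these were Utf1 (ratio 0.349, 63 and 28 reads, adjusted p = 0.000129), Sox2 (0.432, 75 and 40 reads, 0.000431), Pou5f1 (0.472, 69 and 41 reads, 0.00286), Zfp42 (0.326, 36 and 15 reads, 0.00338) and Klf2 (0.595, 65 and 48 reads, 0.0417). Esrrb start 1, with 36 and 44 reads there, had a ratio of 0.989. The flank signal, 1500 to 2000 bp from the TSS and averaged over all TSSs, was 0.155 ppm in control and 0.151 ppm in knockdown cells. Upon Hdac6 KD Pou5f1 (0.155 ppm), Sox2 (0.160 ppm) and Utf1 (0.147 ppm) were at about this average. The DNA around these genes themselves differed from it. From 1000 to 2000 bp upstream and downstream, p400 upon Hdac6 KD was 0.292 and 0.159 ppm at Pou5f1. The same windows held 0.176 and 0.143 ppm at Sox2 and 0.167 and 0.169 ppm at Utf1.

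**Figure D2:**
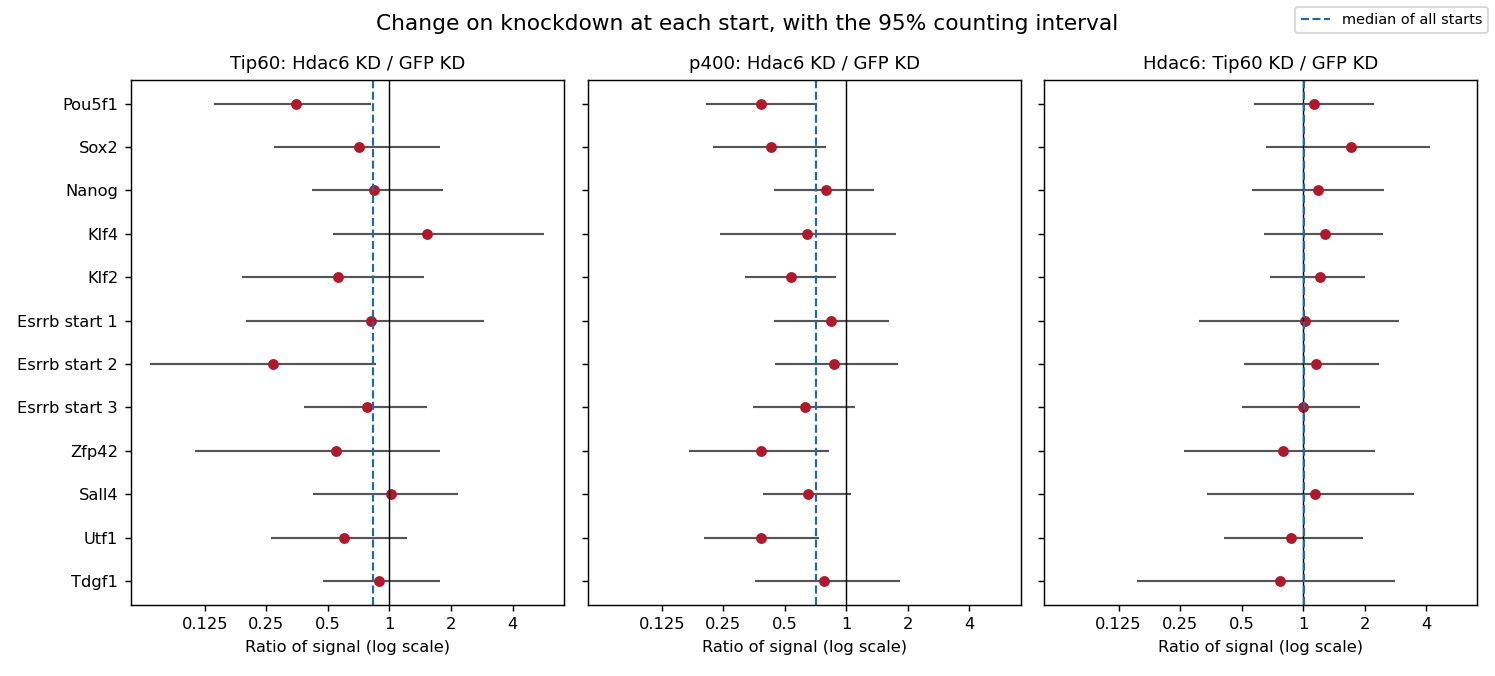
Ratio of promoter signal between knockdown and control (horizontal axis, log scale) at each of the 12 TSSs (vertical axis) for Tip60 and p400 upon Hdac6 KD and for Hdac6 in the library titled Tip60 KD, with lines for the 95% counting interval and a dashed line for the median of all TSSs. For p400 all 12 points are below 1 and 5 intervals exclude it, for Tip60 only those of Pou5f1 and Esrrb start 2 do, and for Hdac6 none does.

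Tip60 signal upon Hdac6 KD was lower at 8 of 10 genes, against 62.3% of all TSSs, and the clearest difference was again at Pou5f1. Its Tip60 signal was 0.339 ppm in control and 0.119 ppm in knockdown cells, a ratio of 0.350 (95% interval 0.139 to 0.815, 25 and 8 reads). Zfp42 had 0.125 and 0.0686 ppm (0.549, 0.111 to 1.77), Klf2 0.197 and 0.109 ppm (0.557, 0.190 to 1.47) and Utf1 0.313 and 0.187 ppm (0.598, 0.263 to 1.22). Sox2 had 0.188 and 0.133 ppm (0.706, 0.273 to 1.78) and Nanog 0.267 and 0.225 ppm (0.842, 0.416 to 1.83).

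Tdgf1, with the highest Tip60 signal over background, differed little, at 0.321 and 0.283 ppm (ratio 0.884, 95% interval 0.474 to 1.77). Sall4 was at 0.202 and 0.205 ppm (1.01, 0.423 to 2.17), and Klf4 was higher upon Hdac6 KD, at 0.0891 and 0.136 ppm (1.53, 0.531 to 5.70, 6 and 9 reads). The Esrrb starts differed from one another, with ratios of 0.808, 0.269 and 0.773, of which only that of start 2 (0.213 and 0.0573 ppm, 16 and 4 reads) had an interval below 1 (0.0677 to 0.863).

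The median Tip60 ratio over the 10 genes was 0.757, against 0.834 over all 35964 TSSs with signal, and by a fold of 1.5 Tip60 was lower at 4 of the 10, against 35.4% of all TSSs, which is close to the background. The exact binomial test with Benjamini-Hochberg adjustment called 0 of the 12 TSSs lower and 0 higher, against 0.445% and 0.0501% of all TSSs. By fold alone 1 gene, Klf4, was higher, against 15.8%. The adjusted p was 0.187 at Pou5f1 and 0.281 at Esrrb start 2, with unadjusted values of 0.0084 and 0.0226. In the wider window, with 51 and 21 reads, Pou5f1 had a ratio of 0.469 (95% interval of the difference −73.8% to −22.4%) and an adjusted p of 0.0722 by the same exact test. Corrected for base composition by flank windows of like GC content, the count of genes lower by 1.5-fold was 2 instead of 4. The flank windows used reached 64% GC, so Klf2 (64.8%) and Klf4 (69.4%) took the correction of the highest GC class below them. In the narrower window the count was also 2. The Tip60 signal upon GFP KD exceeded the untagged signal at 3 of the 10 genes (Tdgf1, Sall4 and Utf1), and whether the differences at the others, Pou5f1 included, come from Tip60 or from background was not tested.

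Pou5f1, Utf1, Zfp42 and Klf2, 4 of the 10 genes, were lower by 1.5-fold in both Tip60 and p400 upon Hdac6 KD, and these were all the genes so called for Tip60. Over all TSSs 17.0% were lower by that fold in both. In both, the ratio was below 1 at 8 of the 10 genes, against 48.5% of TSSs. The 2 comparisons share no library, but the same promoters with the same base composition underlie both. Across the 10 genes the log2 ratios had a Pearson r of 0.673 and the ratios a Spearman rho of 0.648, as a description of 10 points. Sox2 was among the lowest for p400 but not for Tip60, where its ratio of 0.706 had an interval up to 1.78.

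Hdac6 signal in the library titled Tip60 KD was similar to that upon GFP KD at these genes. The median ratio was 1.14, against 1.01 over all 35579 TSSs with signal, with 7 genes above 1, against 51.2% of TSSs, and 3 below. Sox2 had the largest difference, 0.120 ppm upon GFP KD and 0.206 ppm in the Tip60 KD library, a ratio of 1.72 (95% interval 0.661 to 4.16) from 10 and 13 reads, and was the single gene past a fold of 1.5, against 20.2% of TSSs higher and 20.7% lower by that fold. Klf2 had 0.396 and 0.480 ppm (1.21, 0.691 to 2.00), Klf4 0.249 and 0.319 ppm (1.28, 0.641 to 2.46), Pou5f1 0.264 and 0.298 ppm (1.13, 0.578 to 2.22) and Nanog 0.208 and 0.247 ppm (1.18, 0.559 to 2.49).

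Sall4 (0.0982 and 0.113 ppm, 1.15) and the Esrrb starts (1.02, 1.16 and 0.996) were also near 1, and Utf1 (0.230 and 0.200 ppm, 0.868), Zfp42 (0.139 and 0.111 ppm, 0.796) and Tdgf1 (0.0880 and 0.0680 ppm, 0.773) were below it. The intervals of all 12 TSSs include 1, and summed over the 10 genes the ratio was 1.12 (95% interval 0.879 to 1.42, 153 and 136 reads). The exact binomial test with Benjamini-Hochberg adjustment called 0 TSSs of the whole table in either direction, which is 0.0% of 35579, at 8 to 10 reads for the median TSS. On simulated reads, a 4-fold fall was called in 5.0% of the changed TSSs. These were drawn only from TSSs with more expected GFP KD reads than the median TSS. The test therefore leaves even large falls undetected. Rises were not simulated.

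The shape of the signal around the TSS also differed between libraries at these genes. Within each library, signal from −100 to 300 bp was divided by that from −600 to −200 bp. For p400 upon GFP KD the downstream signal was higher at 8 of the 10 genes, with a median ratio of 1.73, while 60.5% of all TSSs had higher downstream signal. Upon Hdac6 KD it was higher at 6, with a median of 1.12, against 58.0% of all TSSs. For Tip60 it was higher at 7 genes upon GFP KD (median 1.16) and at 3 upon Hdac6 KD (0.695), against 50.1% and 46.0% of all TSSs. These shapes depended on the windows: with 0 to 500 bp over −500 to 0 bp the Tip60 medians were 1.29 and 1.25, and the p400 medians 1.24 and 1.09. The untagged library had 6 genes (1.12), against 44.8%, and the Hdac6 libraries had 7 (1.33) and 6 (1.14), against 61.3% and 60.8% of TSSs.

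The p400 difference upon Hdac6 KD was larger downstream than upstream in these windows. The mean of the 10 genes from −100 to 300 bp was 0.383 ppm in control and 0.192 ppm in knockdown cells, a difference of −49.7%, against −33.7% over all TSSs. From −600 to −200 bp it was 0.237 and 0.180 ppm, a difference of −24.1%, against −29.3%. Downstream p400 signal was lower at all 10 genes, from 0.453 to 0.124 ppm at Sox2 and from 0.600 to 0.269 ppm at Klf2, while upstream signal was higher at Klf4, Nanog and Tdgf1. Tip60 differed by −34.9% downstream and −4.97% upstream, against −18.0% and −10.8% over all TSSs. For Tip60 the genes differed among themselves. Klf2 had 0.210 and 0.0746 ppm downstream and 0.109 and 0.256 ppm upstream, Sall4 went the opposite way (0.281 and 0.373 ppm downstream, 0.152 and 0.0472 ppm upstream), and Nanog (−36.1% and −47.0%) and Utf1 (−38.7% and −41.2%) were lower by about as much on both sides. For Hdac6 the mean differed by 2.04% downstream and 7.72% upstream.

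**Figure D3:**
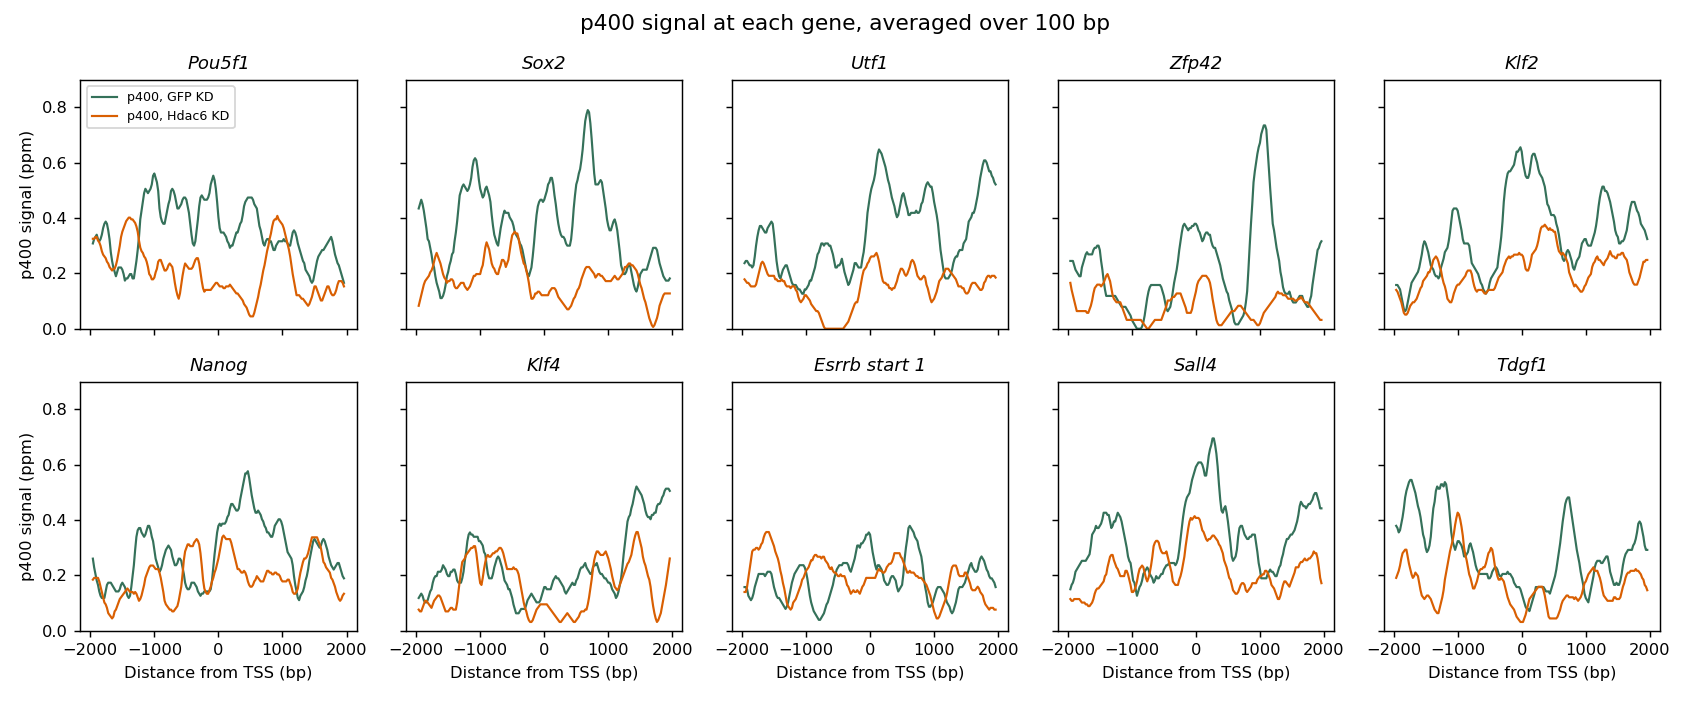
p400 signal in ppm (vertical axis, averaged over 100 bp) against distance from the TSS in bp (horizontal axis) at the 10 genes upon GFP KD (green) and Hdac6 KD (orange). At Sox2, Utf1, Klf2 and Sall4 the green line is high near the TSS, and at Pou5f1, Sox2, Utf1 and Zfp42 the orange line stays below it over most of the region.

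The signal at these genes was not confined to the promoter. Between 1000 and 2000 bp from the TSS, windows chosen after the values were seen, p400 upon GFP KD averaged 0.282 ppm over the 10 genes and 0.161 ppm over all TSSs. All 10 genes were above the median of all TSSs on both sides, as were 31.3% of TSSs, and their median percentile rank was 98.0. The same distance held 0.227 ppm of Tip60 against 0.152 ppm, and 0.160 ppm of Hdac6 against 0.0901 ppm. It also held 0.237 ppm in the untagged library against 0.153 ppm, with a median rank of 93.1, so the high coverage of the surrounding DNA was present without a tagged protein. Upon Hdac6 KD p400 at this distance averaged 0.174 ppm over the 10 genes and was lower at 9 of them (all but Esrrb start 1), against 57.2% of TSSs. Summed over the genes the difference was −38.4% (95% interval −46.3% to −29.3%, 487 and 372 reads), with a median ratio of 0.573 against 0.940 over all TSSs. For Tip60 the corresponding difference was −16.0% (−29.0% to −0.638%), with 7 genes lower against 57.4% of TSSs and a median ratio of 0.903 against 0.927.

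**Figure D4:**
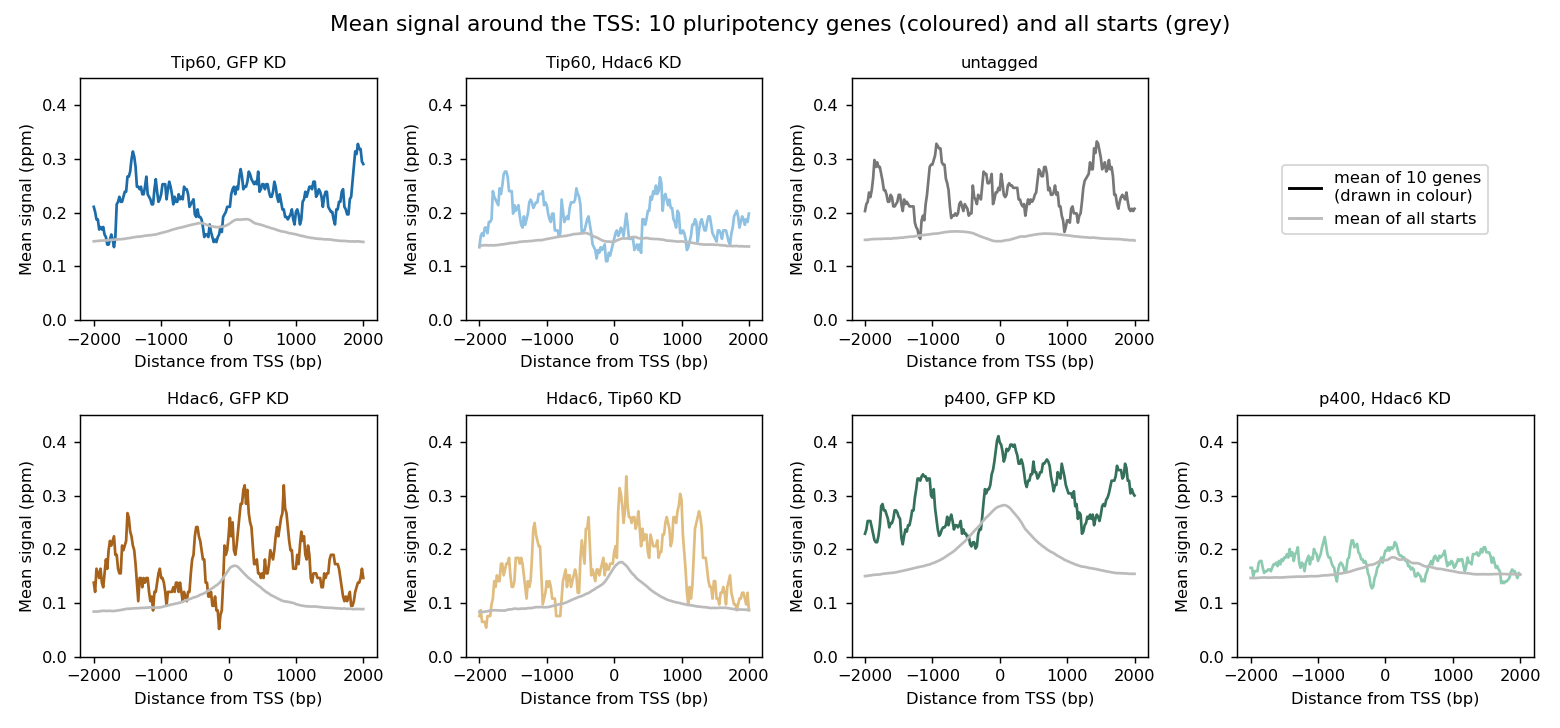
Mean signal in ppm (vertical axis) against distance from the TSS in bp (horizontal axis) over the 10 genes (coloured) and over all TSSs (grey) in each library. The coloured line stays above the grey line over most of the region in the p400 library upon GFP KD, where it averages 0.282 ppm between 1000 and 2000 bp, and lies close to it upon Hdac6 KD.

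A wider list of 35 pluripotency and self-renewal genes, of which 32 were found in the files was set beside the 10 core genes. Its median Tip60 signal over background was 1.35, with 20 of 32 genes above 1, near the 59.2% of all TSSs, against 0.769 and 3 of 10 for the core genes. The median p400 ratio upon Hdac6 KD was 0.536, with 26 of 32 lower by 1.5-fold, against 44.7% of all TSSs, and 6 called by the exact binomial test with Benjamini-Hochberg adjustment, against 13.4%. The 3 with the largest difference by this exact test were Gbx2, a homeobox factor (0.519 and 0.112 ppm, ratio 0.217, adjusted p = 2.63e-05), Dppa5a, an ESC marker encoding an RNA-binding protein (0.230 and 0.0531 ppm, 0.231, 0.0154), and Nacc1, a BTB domain factor (0.291 and 0.0837 ppm, 0.287, 0.0124).

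For Tip60 upon Hdac6 KD the wider list had a median ratio of 0.678, with 16 of 32 lower by 1.5-fold, against 35.4% of all TSSs, and 1 called by the same exact test, Thap11 (Ronin), at 0.255 and 0.0164 ppm from 19 and 1 reads (ratio 0.0643, 95% interval 0.00141 to 0.369, adjusted p = 0.0262). Hdac6 over the untagged library had a median of 2.04, with 9 of 32 called higher by that test, near the 23.3% of all TSSs, among them Rif1 (ratio 6.49, 95% interval 2.58 to 20.3, 20 and 6 reads) and Thap11 (4.65, 2.21 to 11.2). Hdac6 in the library titled Tip60 KD had a median of 1.08, with 0 of 32 called by the exact test, against 0.0% of all TSSs. By 1.5-fold 6 were higher and 5 lower, against 20.2% and 20.7% of all TSSs.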

How the data were processed

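Chromatin of 7 mouse ESC samples, 1 per condition, was profiled by ChIP-seq. The deposited values are signal (read coverage) in ppm every 20 bp from −2000 to 2000 bp around each TSS, 201 positions in all. To make it, the authors mapped reads to mm9 with bowtie (version not given in the sources used here) allowing 1 mismatch, assigned each read that matched several places to 1 of them at random, extended reads, removed those overlapping simple repeats, and normalized to total reads. CASAVA 1.8.2 is listed in the submitters' processing notes. The methods state an extension other than the 299 bp covered by single reads in 5 files. The deposited tables hold no comparison columns.

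Every value was a whole multiple of what 1 read is worth, within 0.02 of a step, for 100.0% of values in each library, so reads per window were recovered. Libraries were compared in 5 pairs by ratio, its exact 95% interval conditional on the summed reads, and the matching exact binomial p, adjusted by Benjamini-Hochberg over all TSSs of the pair. A TSS was called at a fold of 1.5 and an adjusted p below 0.05. On simulated reads, 4-fold falls were called in 13.0% of changed TSSs for Tip60 and 36.5% for p400 upon Hdac6 KD. The changed TSSs were drawn only from those above a minimum of expected reads in the control library. Recovery at TSSs with fewer reads was not measured. A pair of libraries with no replicates gives no test between conditions.

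The genes and comparison lists were chosen with earlier results of these data known. All 10 genes were named with values, and of the wider list at most 3 per comparison, those with the largest fold among called TSSs. A single result is not reported here. Tfcp2l1, Il6st and Smarcad1 of that list, and Gata6 and Lama1 of the endoderm list, were not matched by symbol. Alternatives changed the window, scaling, background, fold, pseudocount, minimum reads, choice of TSS and GC correction. Reading promoter sequence from the mm9 genome was added after seeing the data. Python 3.11.15, NumPy 2.4.6, pandas 2.3.3, SciPy 1.17.1 and matplotlib 3.10.9 were used.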

Additional observations from a re-analysis of the deposited data

How the results depend on the processing

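The limits are those of 1 library per condition with few reads per promoter. No paired analysis was possible because each condition has 1 sample, and no replicate could be left out for the same reason. Of 284 values of single TSSs under an alternative, 262 stayed within the counting interval of the reported value and 21 moved past it, and 26 of the 284 lay on the other side of 1. Among ratios past a fold of 1.5 this happened once, for Tip60 over untagged at Tdgf1, which was 1.82 and became 0.855 in the wider window. Among the smaller ratios, Hdac6 over untagged at Zfp42 went from 1.24 to 0.231 in the narrower window. The causes were not tested.

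Subtracting flank signal took the median ratio of the genes with signal left in the denominator to 0.445 for Tip60 over untagged (main value 0.769, 8 genes), 0.290 for Tip60 upon Hdac6 KD (0.757, 7 genes) and 0.0431 for p400 upon Hdac6 KD (0.590, 9 genes). With equal totals the median was 0.985 for Hdac6 over untagged (1.36) and 0.714 for p400 upon Hdac6 KD, and the narrower window gave 0.454 for p400. The count of genes with Tip60 above untagged by fold was 1, and became 0 in the wider window, 2 after flank subtraction and 0 at a fold of 2. The 4 genes lower in Tip60 upon Hdac6 KD became 2 in the narrower window, 1 at a fold of 2, 1 after untagged subtraction (which left 3 genes with a denominator) and 2 with GC correction. The 7 lower in p400 became 4 at a fold of 2. For Hdac6 in the Tip60 KD library, 0 genes lower became 2 in the narrower window, 1 in the wider window, 2 after flank subtraction and 2 after untagged subtraction. The median downstream-to-upstream ratio was above 1 in 6 of 7 libraries and in 4 to 7 under the alternatives, and for Tip60 upon Hdac6 KD it went from 0.695 to 1.25 with windows 0 to 500 and −500 to 0 bp.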
